A study of Mus musculus with 2 samples.

Results

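The 9 chemokine receptor genes that direct leukocyte retention in the bone marrow and exit from it, Cxcr2, Cxcr4, Ccr1, Ccr2, Ccr7, Ccr9, Cxcr3, Cxcr5 and Cxcr6, were followed across cell types and genotypes in sc-RNA-seq data of mouse bone marrow. They were chosen by name and are 9 of the 13211 genes listed for either library, and all 9 were listed for both. The study deleted Col1a1, which encodes the α1 chain of type I collagen, in cells of the Fsp1 lineage and examined how the loss affects the marrow. Col1a1fspKO mice carried Fsp1-Cre and 2 loxP-flanked Col1a1 alleles. The animals called WT were Cre-negative littermates with the same floxed alleles, so the floxed allele was common to both groups. All mice were 2 months old and untreated. Each genotype was represented by 1 library, made from the pooled marrow of 2 mice, from flushed leg bones sorted for live cells. With 1 library per genotype there was no replicate and no test between genotypes, and differences between the pools, the mice or the library preparations cannot be told apart from the genotype.

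Chemokine receptors are G protein-coupled receptors that steer leukocytes along gradients of small secreted proteins. In the marrow, CXCR4 binds CXCL12 made by stromal cells and holds neutrophils, monocytes and B cell precursors in place, whereas CXCR2 on neutrophils and CCR2 on monocytes direct exit to the blood. CCR7, CXCR5, CXCR3, CXCR6 and CCR9 are better known from lymphocytes and dendritic cells, which they guide to lymph nodes, B cell follicles, inflamed tissue, liver and gut.

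The Col1a1fspKO library held 1309 cells and 8647722 unique molecular identifiers (UMIs, each counting 1 captured RNA molecule), and the WT library 1169 cells and 8624469 UMIs. Median depth per cell was 4954 UMIs in Col1a1fspKO against 5534 in WT. The libraries shared 2 cell barcodes, whose log counts correlated at 0.439 and 0.583. Clustering gave 15 clusters in 12 cell classes, named from marker genes, and the members were left out of the genes used to cluster. Levels are given as UMIs per 1000000 UMIs (CPM) of the cells concerned, and all intervals are 95% intervals that cover counting error only. Because the 3′ reads are not scaled to gene length, levels are compared within a gene and not between genes. The deletion could not be checked, since Col1a1 itself was almost absent, with 3 Col1a1fspKO UMIs and 0 WT UMIs. S100a4, which encodes Fsp1 and whose promoter drives the Cre, had 2026 and 2184 UMIs in these marrow cells. No stromal class was found, and Ighd, Trac, Trbc2, Gp6, Dcn and Col3a1 were the markers not listed.

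Promoters are shown for 3 receptors of the neutrophil path. Cxcr2 and Ccr1 climbed in CPM toward mature neutrophils, and Cxcr4, the retention receptor, was lower in Col1a1fspKO. The sequences are from RefSeq (GRCm38.p6) and cover the 250 bases before the transcription start, written 5′ to 3′ on the strand of the gene. Cxcr2 lies at chr1:74153744-74153993 on the plus strand, Ccr1 at chr9:123968693-123968942 on the minus strand and Cxcr4 at chr1:128592300-128592549 on the minus strand. Capitals mark matches on either strand to 4 short motifs, TTGCNNAA (C/EBP, a factor family of the granulocyte lineage), GAGGAA (PU.1, a factor of myeloid and B cells), TGTTCT (a glucocorticoid receptor half-site) and TATAAA (the TATA box).
Cxcr2: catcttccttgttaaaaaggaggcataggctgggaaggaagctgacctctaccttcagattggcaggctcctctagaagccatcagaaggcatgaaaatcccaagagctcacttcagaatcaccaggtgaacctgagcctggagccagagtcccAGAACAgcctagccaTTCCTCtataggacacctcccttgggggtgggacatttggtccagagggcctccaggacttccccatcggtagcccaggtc
Ccr1: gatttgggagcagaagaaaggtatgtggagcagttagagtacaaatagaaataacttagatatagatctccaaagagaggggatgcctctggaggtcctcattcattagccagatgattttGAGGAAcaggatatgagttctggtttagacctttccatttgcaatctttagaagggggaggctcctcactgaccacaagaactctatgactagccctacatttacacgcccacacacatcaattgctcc
Cxcr4: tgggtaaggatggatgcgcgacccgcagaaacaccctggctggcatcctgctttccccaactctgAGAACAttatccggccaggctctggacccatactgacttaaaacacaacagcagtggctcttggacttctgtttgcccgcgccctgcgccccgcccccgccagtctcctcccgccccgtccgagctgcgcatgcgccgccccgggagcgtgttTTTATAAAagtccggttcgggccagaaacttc
The Cxcr2 window held a PU.1 match 81 bases and a glucocorticoid half-site match 96 bases before the start. The Ccr1 window held a PU.1 match 129 bases before it. The Cxcr4 window held a glucocorticoid half-site match at 185 bases and a pair of overlapping TATA matches on opposite strands at 32 and 30 bases. Of 32851 promoters of this length, 23.3% held the PU.1 motif, 16.1% the glucocorticoid half-site, 12.4% the TATA box and 9.56% the C/EBP motif. The Cxcr4 window held 19 CG dinucleotides against 1 each in Cxcr2 and Ccr1 and a median of 6 over all promoters. Windows were at hand for 7 of the 9 members. Of the other 4, Cxcr3 held a PU.1 match 14 bases before the start and Ccr2, Ccr9 and Cxcr6 held no match. No window held a C/EBP match. Such matches describe letters and not binding.

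Over all cells, Cxcr4 was the 1 member lower in Col1a1fspKO beyond its counting interval, and Ccr9 and Cxcr6 had the largest ratios in the other direction. Cxcr4 had 475 Col1a1fspKO UMIs and 709 WT UMIs, a CPM ratio, here and below Col1a1fspKO over WT, of 0.668 (0.594 to 0.752). Ccr9 had 86 and 28 UMIs, a ratio of 3.06 (1.98 to 4.88). Cxcr6 had 49 and 11, a ratio of 4.44 (2.28 to 9.47). These 3 intervals all exclude 1.

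Cxcr2 had 281 Col1a1fspKO UMIs against 169 in WT, a ratio of 1.66 (1.37 to 2.02). Ccr2 had 2012 and 1672, a ratio of 1.2 (1.12 to 1.28). Ccr7 had 72 and 48, a ratio of 1.5 (1.02 to 2.20). These 3 were higher in the Col1a1fspKO library beyond counting error. Ccr1 had 488 and 476 UMIs and a ratio of 1.02 (0.899 to 1.16), Cxcr3 had 38 and 23 and a ratio of 1.65 (0.957 to 2.90), and Cxcr5 had 8 and 9 and a ratio of 0.886 (0.298 to 2.59). For these no difference was detectable at this depth. Of the 8 members with at least 20 UMIs, 4 were past 1.5-fold (Cxcr2, Ccr9, Cxcr3 and Cxcr6, all higher), against 9.48% of all genes tested that were past it in either direction. Cxcr4 and Ccr7 lay just inside that fold.

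The libraries differed in their mix of cells, and part of the members' totals moved with it. Mature neutrophil-like cells, which had the highest Cxcr2 level, made up 8.71% of Col1a1fspKO cells and 3.51% of WT cells. T and NK-like cells made up 4.43% and 2.65%. With the same cluster weights in both libraries, an alternative chosen after seeing the data, the ratio of Cxcr2 was 1.14, that of Cxcr3 1.0, that of Cxcr4 0.685, that of Ccr9 2.18 and that of Cxcr6 2.54. Cxcr4, Ccr9 and Cxcr6 thus differed also with the mix of clusters held equal. Most of the Cxcr2 and Cxcr3 differences, and part of that of Ccr7, did not remain.

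**Figure D1:**
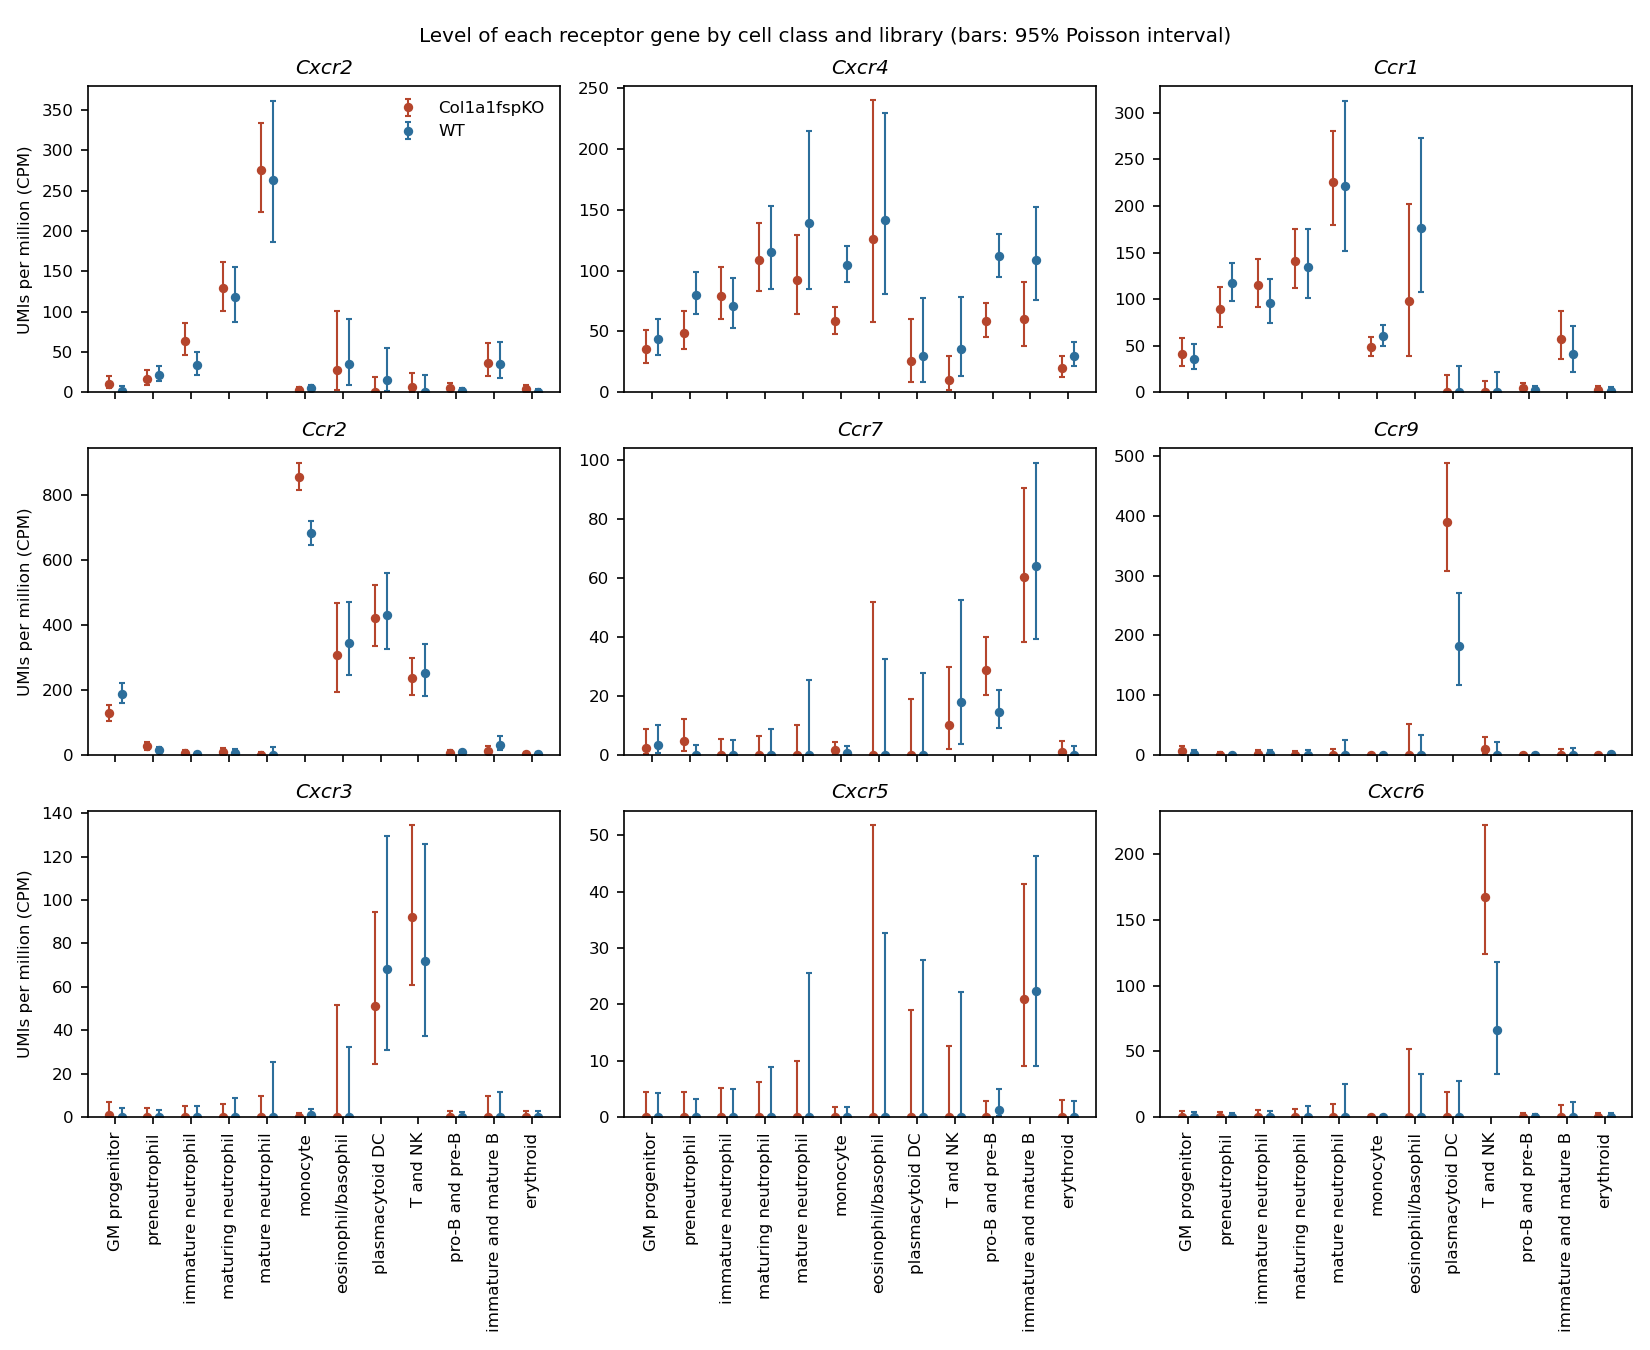
Level of the 9 receptors in each of 12 cell classes, 1 panel per receptor, in CPM with 95% counting intervals, for Col1a1fspKO and WT. Cxcr2 and Ccr1 peak in mature neutrophil-like cells, Ccr2 in monocyte-like cells, Ccr9 in plasmacytoid dendritic-like cells, Cxcr3 and Cxcr6 in T and NK-like cells, and Ccr7 and Cxcr5 in immature and mature B-like cells, whereas Cxcr4 is spread over most classes.

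Cxcr2, the neutrophil receptor for ELR-type CXC chemokines, climbed along the neutrophil classes. Its level in Col1a1fspKO was 16.8 CPM in preneutrophil-like, 63.9 in immature, 129 in maturing and 275 in mature neutrophil-like cells. In WT it was 21.6, 34.3, 117.9 and 263 CPM in the same order. The mature class stood 16.4-fold (9.34 to 31.1) above the preneutrophil class in Col1a1fspKO and 12.2-fold (7.11 to 21.2) in WT, so both libraries showed the climb. Each of the last steps was resolved, with the maturing class over the immature by 2.02-fold (1.38 to 2.99) and 3.44-fold (2.08 to 5.82) and the mature over the maturing by 2.13-fold (1.57 to 2.92) and 2.23-fold (1.42 to 3.48), in Col1a1fspKO and WT. The 4 neutrophil classes held 83.6% of the Cxcr2 UMIs of Col1a1fspKO and 80.5% of those of WT.

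A Cxcr2 UMI was seen in 64 of 114 mature neutrophil-like cells in Col1a1fspKO (56.1%, 46.5 to 65.4) and in 25 of 41 in WT (61.0%, 44.5 to 75.8). In erythroid-like cells, which should lack the receptor, 3.16% and 1.06% of cells had one, at median depths of 9422 and 11793.5 UMIs against 2998 and 3335 in the mature neutrophil-like cells. Between the libraries the mature class differed by a ratio of 1.04 (0.713 to 1.56) and the maturing class by 1.09 (0.753 to 1.60), and no difference was detectable in either. In the preneutrophil class the ratio was 0.775 (0.370 to 1.56). All 4 classes as 1 group gave 94.4 CPM in Col1a1fspKO and 56.7 in WT, a ratio of 1.67 (1.34 to 2.07). That group ratio also carries the mix of classes, since mature cells were 114 of 515 in Col1a1fspKO and 41 of 428 in WT. Only in the immature class did the interval exclude 1, with 45 and 25 UMIs and a ratio of 1.86 (1.12 to 3.17), among 12 classes looked at.

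Cxcr2 UMIs also appeared in immature and mature B-like cells, at 36.7 CPM in Col1a1fspKO and 35.3 in WT. Of 185 cells in that class, 25 held at least 100 UMIs of S100a8, a neutrophil marker gene, and all 25 also had a UMI of the B cell gene Cd79a. These 25 cells, 13 of Col1a1fspKO and 12 of WT, held 23 of the 25 Cxcr2 UMIs and 13 of the 35 Ccr1 UMIs. Without them Cxcr2 was at 3.16 and 3.94 CPM in the B class, and Ccr1 at 37.9 and 39.4.

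Ccr1, a receptor for inflammatory CC chemokines on myeloid cells, also peaked in mature neutrophil-like cells but over a narrower range of levels than Cxcr2. There it reached 226 CPM in Col1a1fspKO (180 to 280), with WT at 221.7 CPM (152 to 313). It ran from 41.7 and 36.4 CPM in granulocyte-monocyte progenitor-like cells through 89.8 and 117.2 in the preneutrophil, 115 and 95.9 in the immature and 141 and 134.8 in the maturing class. Eosinophil/basophil-like cells had 98.1 and 176.7 CPM over 7 and 20 UMIs, and over both libraries did not differ from the maturing class beyond counting error (1.06-fold, 0.673 to 1.61). Monocyte-like cells had 48.3 and 60.8 CPM, a ratio of 0.796 (0.601 to 1.05).

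Ccr1 was at 0 UMIs in T and NK-like and in plasmacytoid dendritic-like cells of both libraries, which allows up to 18.0 CPM and 22.7 CPM in WT, the library with fewer such cells. In none of the 12 classes did the Col1a1fspKO to WT interval of Ccr1 exclude 1. Cxcr2 and Ccr1 were seen together in 115 of 943 neutrophil-like cells. Ccr1 was seen in 40.9% of the cells with Cxcr2 and in 45% of those without.

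**Figure D2:**
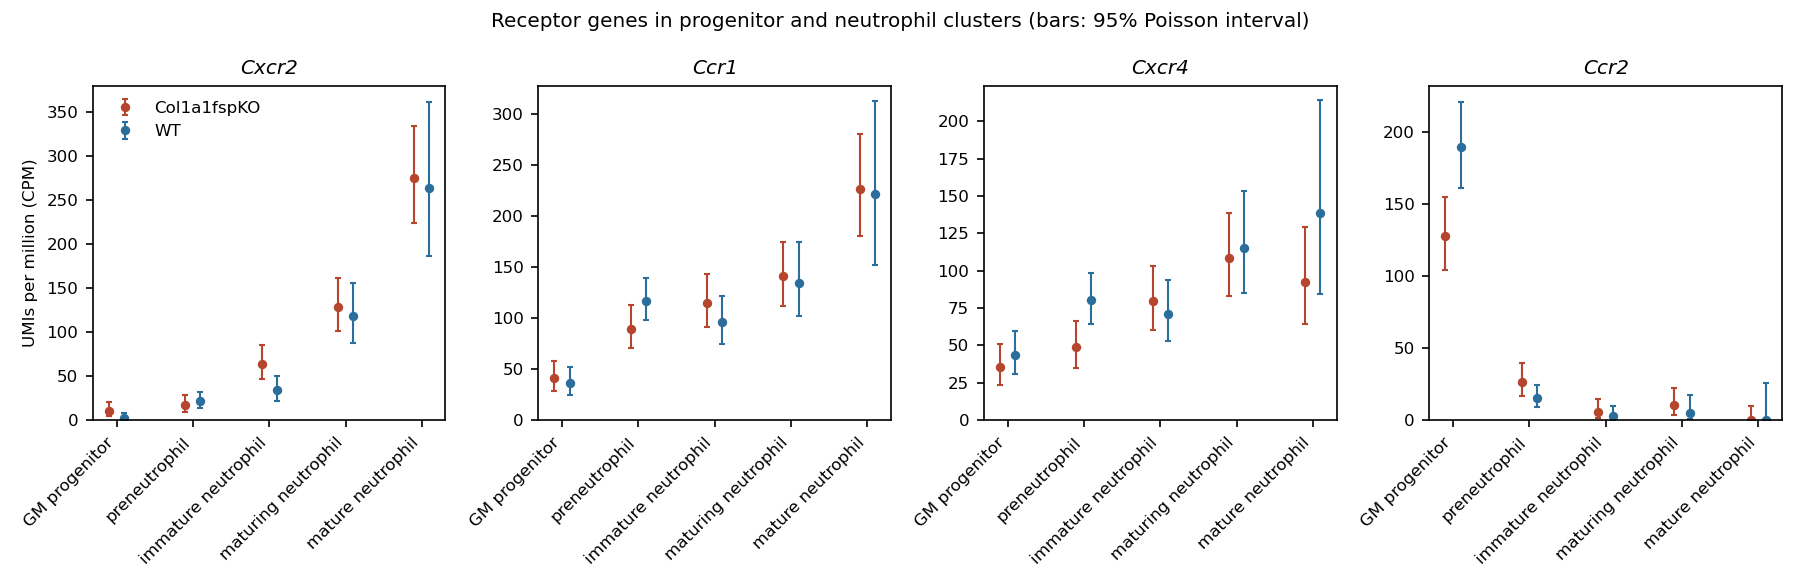
Level of Cxcr2, Ccr1, Cxcr4 and Ccr2 in CPM, with 95% counting intervals, from granulocyte-monocyte progenitor-like cells to mature neutrophil-like cells, for Col1a1fspKO and WT. Cxcr2 climbs to 275 and 263 CPM and Ccr1 to 226 and 221.7 CPM in the mature class, whereas Ccr2 falls from 127.6 and 189.1 CPM in the progenitor class to 0 UMIs in the mature class.

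Cxcr4, the CXCL12 receptor that retains cells in the marrow, was spread over the classes. From the eosinophil/basophil-like class at 135.5 CPM over both libraries down to the preneutrophil class at 66.9 CPM, no class differed from the next beyond counting error. The preneutrophil class stood 1.69-fold (1.25 to 2.31) above the progenitor class, the 1 neighbouring step whose interval excluded 1. Erythroid-like cells had 25.3 CPM and T and NK-like cells 19.6 CPM. Along the neutrophil classes Cxcr4 did not fall as Cxcr2 climbed. In CPM its mature class stood above the preneutrophil class by 1.89-fold (1.16 to 3.05) in Col1a1fspKO and 1.73-fold (1.01 to 2.83) in WT. Its level from preneutrophil to mature was 49.1, 79.5, 108 and 92.6 CPM in Col1a1fspKO, and 80.3, 71.3, 115.5 and 138.6 CPM in WT. In 943 neutrophil-like cells, 281 had Cxcr2, 319 had Cxcr4 and 107 had both. In Col1a1fspKO 31.1% of cells with Cxcr2 had Cxcr4, against 30.2% of those without, and in WT 50% against 34.0%. These shares too pool classes of unlike depth. In the mature class alone they were 31.3% against 24% in Col1a1fspKO and 40% against 31.3% in WT.

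Between the libraries, Cxcr4 was lower in Col1a1fspKO in monocyte-like and B-lineage cells and not detectably different in the neutrophil classes past the preneutrophil stage. Monocyte-like cells had 115 UMIs in Col1a1fspKO (58.5 CPM) and 203 in WT (104.5 CPM), a ratio of 0.560 (0.442 to 0.707). Pro-B and pre-B-like cells had 73 (58.4 CPM) and 162 (111.6 CPM), a ratio of 0.523 (0.392 to 0.694), where 8.2% of the genes tested in that class were lower by over 1.5-fold. Preneutrophil-like cells had 41 and 89 UMIs and a ratio of 0.612 (0.412 to 0.895), and immature and mature B-like cells had 23 and 34 and a ratio of 0.554 (0.312 to 0.969). The value in the B class depended on its border with the pro-B and pre-B class, since its log2 ratio of -0.85 went to -2.96, -2.87 and -2.72 under 3 other clusterings. These 4 classes were lower in Col1a1fspKO beyond counting error. Immature and maturing neutrophil-like cells had ratios of 1.12 (0.751 to 1.66) and 0.938 (0.634 to 1.39), and mature ones 0.668 (0.374 to 1.23). In all, Cxcr4 was lower in 9 of the 10 classes in which it had at least 20 UMIs, the exception being the immature neutrophil-like class. Of 1549 genes measured at that depth in such classes, 2.78% were lower in at least the same share of them. Without the monocyte-like and the pro-B and pre-B-like cells, an alternative chosen after seeing the data, the ratio over the remaining cells was 0.803 (0.684 to 0.942).

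Among monocytes the difference depended on the cluster. In the largest cluster, led by Wfdc17, Cxcr4 had 15 UMIs in 174 Col1a1fspKO cells (15.8 CPM) and 56 in 187 WT cells (57.3 CPM), a ratio of 0.276 (0.145 to 0.495), against 9.45% of genes that were lower there by over 1.5-fold. A Cxcr4 UMI was seen in 12 cells of Col1a1fspKO (6.90%, 3.61 to 11.7) and 50 of WT (26.7%, 20.5 to 33.7). With every cell thinned to 2500 UMIs these shares were 5.17% and 13.9%. The Col1a1fspKO level was close to that of erythroid-like cells, at 20.2 and 30.2 CPM. No single cell carried the difference, since 46 of the 50 WT cells with Cxcr4 held 1 UMI. In the cluster led by Ass1 the gene had 63.4 and 145.8 CPM, a ratio of 0.435 (0.284 to 0.655). In the cluster led by Klf4 it had 142.5 and 159.7 CPM, a ratio of 0.893 (0.627 to 1.27), with no difference detectable. The Wfdc17 cluster stood below the other monocyte clusters by 6.21-fold (3.59 to 11.5) in Col1a1fspKO and 2.66-fold (1.94 to 3.68) in WT.

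Values of 4 genes that respond to glucocorticoids, Tsc22d3, Klf9, Per1 and Fkbp5, are given beside Cxcr4. They were chosen after the values were seen and are no independent evidence. The summed ratio over all monocyte-like cells was 0.580 (0.497 to 0.676). In the Wfdc17 cluster their summed UMIs were 157 in Col1a1fspKO and 306 in WT, a ratio of 0.529 (0.434 to 0.643). Tsc22d3 held 144 and 255 of the UMIs summed in that cluster. In pro-B and pre-B-like cells the summed ratio was 0.817 (0.609 to 1.09), with genes on both sides of 1. Tsc22d3 had 41 and 79 UMIs there, a ratio of 0.603 (0.403 to 0.89), against 0.605 (0.509 to 0.716) in monocyte-like cells. Fkbp5 had 32 and 26, a ratio of 1.43 (0.826 to 2.498), Klf9 5 and 8, and Per1 5 and 5. In the 4 neutrophil classes together, where the Cxcr4 ratio was 0.895 (0.732 to 1.09), the summed ratio was 0.967 (0.817 to 1.15). Immediate early genes, which respond to handling and dissociation (Fos, Jun, Junb, Egr1, Ier2, Dusp1, Zfp36 and Btg2, chosen in the same way), summed to ratios of 1.25 over all cells, 1.12 in the Wfdc17 cluster, 1.30 in the pro-B and pre-B-like cells and 1.38 in the neutrophils. The part of either in the Cxcr4 difference was not tested.

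**Figure D3:**
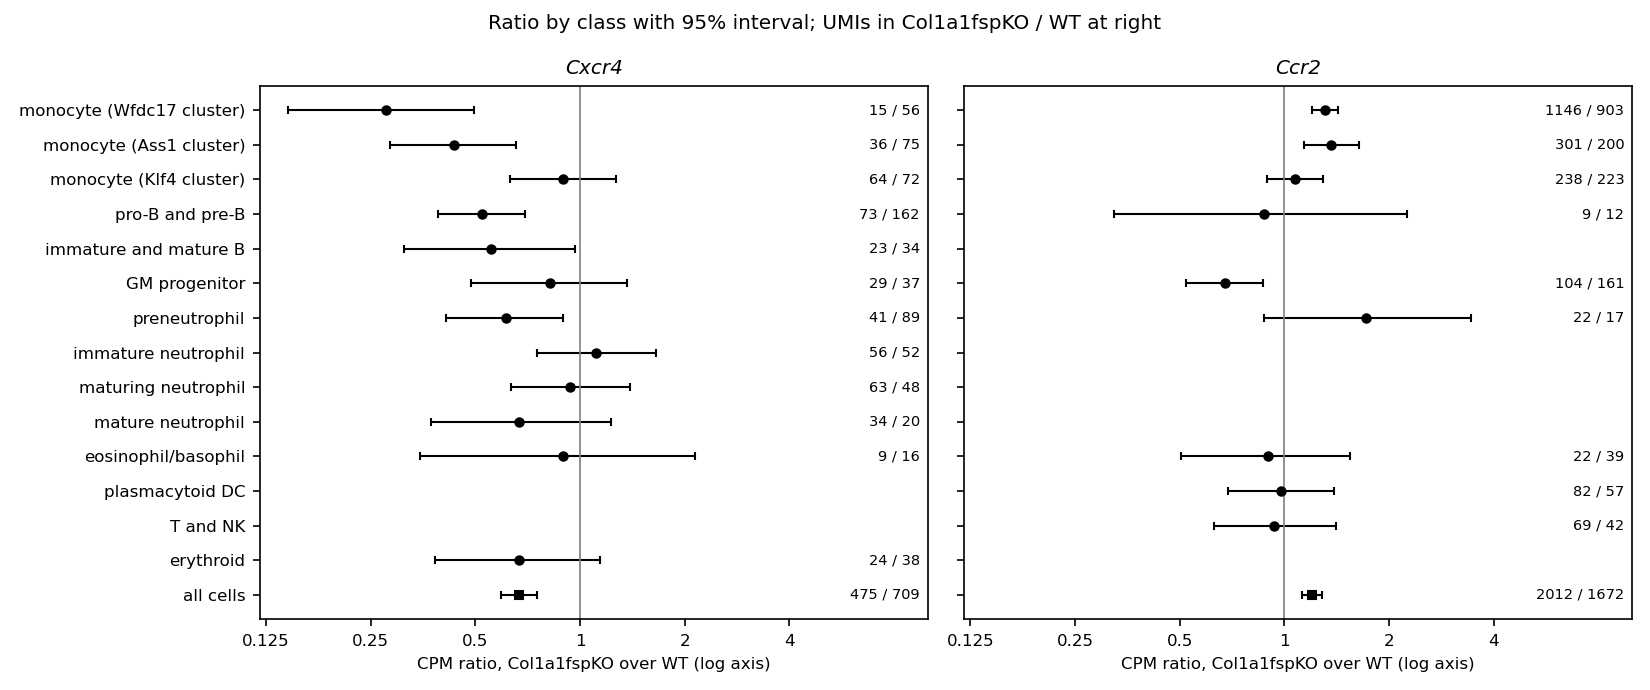
CPM ratio of Col1a1fspKO over WT for Cxcr4 and Ccr2 by cell class, with the monocyte-like class split into its 3 clusters, on a log axis with 95% counting intervals and the UMIs of both libraries at the right. Classes with too few UMIs are left blank. Cxcr4 is lowest in the Wfdc17 monocyte cluster at 0.276 and near 1 in the immature and maturing neutrophil classes, while Ccr2 is above 1 in the Wfdc17 and Ass1 clusters and at 0.675 in the progenitor class.

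Ccr2, the receptor for CCL2 that monocytes need to leave the marrow, was highest in monocyte-like cells. They had 1685 UMIs in Col1a1fspKO (857.5 CPM) and 1326 in WT (682.6 CPM), and held 83.8% and 79.3% of the Ccr2 UMIs of their libraries. A UMI was seen in 97.8% (95.2 to 99.2) and 96.8% (93.9 to 98.5) of these cells, against 5.26% and 4.26% of the deeper erythroid-like cells. Monocyte-like cells stood 17.5-fold (15.6 to 19.8) and 13.2-fold (11.7 to 14.9) above all other cells. Plasmacytoid dendritic-like cells came next, at 421 and 432 CPM, then eosinophil/basophil-like cells at 308 and 344.5 and T and NK-like cells at 236 and 252. Neither the plasmacytoid and eosinophil/basophil-like classes nor the eosinophil/basophil and T and NK-like classes differed beyond counting error.

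Ccr2 left the neutrophil path early. It had 127.6 CPM in Col1a1fspKO and 189.1 in WT in progenitor-like cells, and 26.3 and 15.3 in preneutrophil-like cells, a drop of 4.84-fold (3.04 to 8.06) and 12.3-fold (7.47 to 21.7). In mature neutrophil-like cells it was at 0 UMIs in both libraries, which allows up to 8.17 CPM in Col1a1fspKO and 20.8 CPM in WT. Ccr2 and Cxcr2 thus peaked at opposite ends of this path.

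Between the libraries, Ccr2 was higher in monocyte-like cells of Col1a1fspKO, by a ratio of 1.26 (1.17 to 1.35). The Wfdc17 cluster had 1209 and 924.1 CPM, a ratio of 1.31 (1.2 to 1.43), and the Ass1 cluster 529.8 and 388.8 CPM, a ratio of 1.36 (1.14 to 1.64). The Klf4 cluster had 530 and 494.5 CPM, with no difference detectable (1.07, 0.889 to 1.29). Ccr2 was thus higher in the 2 clusters in which Cxcr4 was lower. In progenitor-like cells it was lower in Col1a1fspKO, with 104 and 161 UMIs and a ratio of 0.675 (0.522 to 0.869). This lay just inside 1.5-fold, past which 9.96% of the genes tested in that class were lower. The marker genes of that class were lower there too, at 6938 CPM in Col1a1fspKO and 10542 in WT. Whether the class held the same mix of cells in both libraries was not tested. In plasmacytoid dendritic-like cells and in T and NK-like cells the Ccr2 ratios were 0.976 (0.688 to 1.39) and 0.935 (0.628 to 1.41).

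Of the lymphoid members, Ccr7, the receptor for lymph node entry, was highest in immature and mature B-like cells. Its 23 Col1a1fspKO UMIs (60.4 CPM) and 20 WT UMIs (64.1 CPM) gave a ratio of 0.942 (0.495 to 1.81). Its log2 ratio of -0.09 in that class went to -1.09 and -1.13 under 2 other clusterings. In pro-B and pre-B-like cells it had 36 UMIs (28.8 CPM) and 21 (14.5 CPM), a ratio of 1.99 (1.13 to 3.59). The later B class stood above the earlier by 2.10-fold (1.19 to 3.63) in Col1a1fspKO and 4.43-fold (2.28 to 8.59) in WT. T and NK-like cells had 3 Ccr7 UMIs in each library, and the neutrophil classes past the preneutrophil stage had none. In the pro-B and pre-B-like cells Ccr7 and Cxcr4 thus lay on opposite sides of 1 between the libraries.

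Cxcr5, the receptor for B cell follicles, had the fewest UMIs of the members. All 8 in Col1a1fspKO and 7 of the 9 in WT were in immature and mature B-like cells, at 21.0 and 22.4 CPM, and the other 2 were in pro-B and pre-B-like cells. Against all other cells the B class was at least 57.9-fold higher in Col1a1fspKO, counting 3 UMIs as the floor for the other cells and with a lower counting limit of 37.0, and 93.2-fold (17.8 to 920) higher in WT. Among 160 B-like cells without high S100a8, 26 had Ccr7, 13 had Cxcr5 and 4 had both.

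Ccr9, which guides cells to the gut and thymus toward CCL25, belonged to plasmacytoid dendritic-like cells. They held 88.4% of its UMIs in Col1a1fspKO and 85.7% in WT, and their level was 330-fold (170 to 716) and 386-fold (132.5 to 1530) above the other cells. Between the libraries Ccr9 had 76 UMIs in 42 cells of Col1a1fspKO (390 CPM) and 24 in 30 cells of WT (182 CPM), a ratio of 2.15 (1.34 to 3.56), against 11.3% of genes tested in this class that were higher by over 1.5-fold. It was seen in 69.0% of cells (52.9 to 82.4) and 50% (31.3 to 68.7), or 45.2% and 33.3% at 2500 UMIs per cell, while erythroid-like cells had 0 and 1 UMIs of it. The cells with 3 or more UMIs of Ccr9 were mostly in Col1a1fspKO, with 4 cells at 3 UMIs, 5 at 4 and 5 at 5, against 2 WT cells at 4. The median depth of the class was alike, at 4455 and 4402 UMIs per cell. Of the 72 cells, 44 had Ccr9, 55 had Ccr2 and 35 had both.

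Cxcr3, which binds interferon-induced chemokines, was shared by T and NK-like and plasmacytoid dendritic-like cells. T and NK-like cells had 27 UMIs in Col1a1fspKO (92.3 CPM) and 12 in WT (72.1 CPM), a ratio of 1.28 (0.627 to 2.78). Plasmacytoid dendritic-like cells had 10 (51.4 CPM) and 9 (68.1 CPM), a ratio of 0.754 (0.275 to 2.10). Over both libraries these classes did not differ from each other beyond counting error (1.46-fold, 0.824 to 2.68), and no difference between genotypes was detectable. All other classes together held 3 of its 61 UMIs.

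Cxcr6, the receptor for CXCL16 on liver-homing and tissue T cells, was found in T and NK-like cells alone. It had 49 UMIs in 58 cells of Col1a1fspKO (167.5 CPM) and 11 in 31 cells of WT (66.1 CPM), and 0 UMIs in every other class of both libraries, so against a floor of 3 UMIs for the other cells its level was at least 467-fold and 186-fold higher, with lower counting limits of 365 and 127. The ratio was 2.54 (1.30 to 5.41) in a class where 16.6% of the genes tested were higher in Col1a1fspKO by over 1.5-fold. It was seen in 19 cells (32.8%, 21.0 to 46.3) and 5 cells (16.1%, 5.45 to 33.7), at up to 7 and 3 UMIs per cell. The 0 UMIs in 95 and 94 erythroid-like cells allow a share of cells with a UMI of up to 3.16% and 3.19%.

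Split by the T cell genes Cd3d, Cd3e and Cd3g and by NK genes such as Ncr1 and Klre1, cells with a Cd3 UMI and no NK UMI held 29 of the 49 Cxcr6 UMIs in Col1a1fspKO (21 cells, 336 CPM) and all 11 in WT (10 cells, 244 CPM). Their intervals, 225 to 483 and 122 to 437 CPM, overlapped. Cells with both kinds of UMI held 17 Cxcr6 UMIs in Col1a1fspKO (23 cells) and 0 in WT (16 cells). In the cells with a Cd3 UMI and no NK UMI, Ccr2 had 22 UMIs in Col1a1fspKO (255 CPM, 160 to 386) and 1 in WT (22.2 CPM, 0.562 to 124). In the cells with both kinds of UMI it had 26 in Col1a1fspKO (214 CPM) and 20 in WT (238 CPM). In cells with NK genes alone Ccr2 had 21 in each library, at 247 and 561 CPM over 14 and 5 cells. Of the 89 cells, 24 had Cxcr6, 27 had Cxcr3 and 10 had both.

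**Figure D4:**
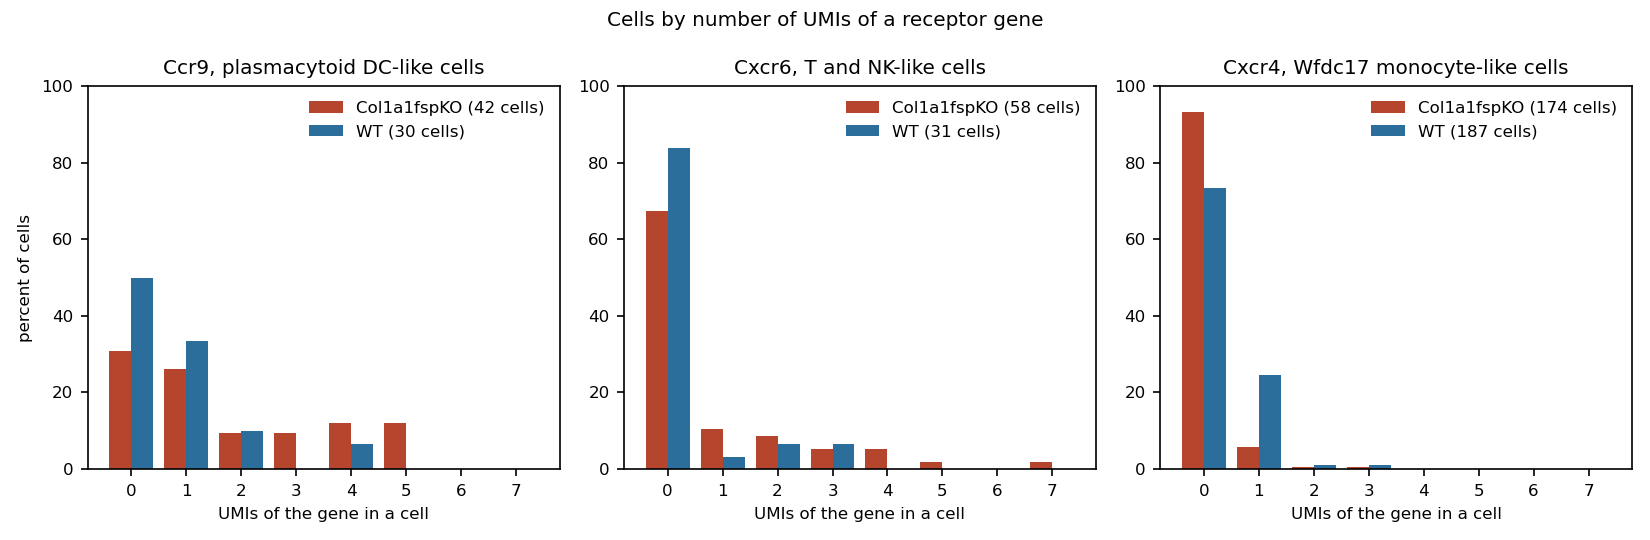
Percent of cells at each number of UMIs per cell for Ccr9 in plasmacytoid dendritic-like cells, Cxcr6 in T and NK-like cells and Cxcr4 in the Wfdc17 monocyte cluster, for Col1a1fspKO and WT. Col1a1fspKO has 13 of 42 cells without Ccr9 against 15 of 30 in WT, 39 of 58 without Cxcr6 against 26 of 31, and 162 of 174 without Cxcr4 against 137 of 187.

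Ccr9, Cxcr6, Ccr1 and Ccr2 lie within 341.9 kb of each other on mouse chromosome 9. Ccr9 and Cxcr6 are 23.0 kb apart, Cxcr6 and Ccr1 150.4 kb, and Ccr1 and Ccr2 133.2 kb. Their leading classes differed, being plasmacytoid dendritic-like, T and NK-like, neutrophil-like and monocyte-like cells, so that neighbours as close as Ccr9 and Cxcr6 did not share a class.

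The genes whose log2(CPM + 10) ran most like a member's over 26 points, each 1 cluster in 1 library, are given as a description, since points of 1 library share its depth and preparation. Cxcr2 ran with Mxd1 (r = 0.965), the complement receptor C5ar1 (0.952) and the gelatinase Mmp9 (0.948). Ccr1 ran with Hp (0.958) and Clec5a (0.948), and Ccr2 with Ahnak (0.936) and Itm2c (0.935). Ccr7 ran with B3gnt5 (0.902), and Ccr9 with Klk1 and the plasmacytoid lectin Siglech (both 0.969). Cxcr4 had no close companion, its highest being Zbtb22 at 0.738. Cxcr3, Cxcr5 and Cxcr6 had under 100 UMIs and were left out.

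Among the ligands, 10 of 28 had enough UMIs over all cells, and 4 were higher in Col1a1fspKO by over 1.5-fold (Pf4, Ccl4, Ccl5 and Cxcl10) and 1 lower (Cxcl12), against 9.48% of all genes past that fold in either direction, with a median log2 ratio of 0.16 against -0.04 over all genes. Ccl5, a ligand of CCR1 made by T and NK cells, had 3085 and 1160 UMIs, a ratio of 2.65 (2.48 to 2.84), and within T and NK-like cells 9746 and 6751 CPM, a ratio of 1.44 (1.35 to 1.55). Cxcl10, a ligand of CXCR3, had 61 and 10 UMIs, in 27 cells of both libraries, and 1 Col1a1fspKO cell held 19 of them. Cxcl12, the CXCR4 ligand, had 0 UMIs in Col1a1fspKO and 118 in WT, of which 106 were in 1 WT cell. That cell also held 5 UMIs of Col1a2, 4 of Pdgfrb and 7 of Igfbp7, genes of stromal cells, beside 1464 of S100a8, so the Cxcl12 values say nothing of the level in the other cells. In the same way 19 of 21 Pf4 UMIs in Col1a1fspKO were in 1 cell.

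Among the other chemokine receptors, the scavenging receptor Ackr1 was higher in Col1a1fspKO, with 77 and 46 UMIs and a ratio of 1.67 (1.14 to 2.46), and 94.3% of its UMIs were in erythroid-like cells. Cx3cr1, the fractalkine receptor of monocytes, had 218 and 212 UMIs and a ratio of 1.03 (0.845 to 1.24), and Ccr3, the eosinophil receptor for eotaxins, had 14 and 17 and a ratio of 0.821 (0.375 to 1.77). Of 13 other receptors and adhesion molecules of retention and egress, 1 was past 1.5-fold, S1pr1, the exit receptor of lymphocytes, with 14 and 26 UMIs and a ratio of 0.537 (0.259 to 1.07) whose interval included 1. Itga4 and Itgb1, the VLA-4 integrin chains that anchor cells in the marrow, had ratios of 0.967 (0.855 to 1.09) and 1.0 (0.847 to 1.19). Of 19 genes of receptor signalling, 1 was past 1.5-fold, Rgs1, with 35 and 20 UMIs. Its ratio was 1.75 (0.980 to 3.19), an interval that included 1, and the median log2 ratio of the list was 0.05. Over all genes tested, 9.48% were past 1.5-fold in either direction. Neither the retention and egress list nor the signalling list had a larger share.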

How the data were processed

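The deposited values were raw UMI counts by gene and cell, which the authors obtained with Cell Ranger on mm10 per the submitters' processing notes, which also name Seurat 3.5.3. The Cell Ranger version is not given in the sources used here. A gene missing from a table was counted as 0. The stated limits of 200 to 7000 genes and 10% mitochondrial UMIs removed no cell, and 5 called doublets per library were kept. Counts were log-normalized and clustered in Seurat 5.3.0 (R 4.3.3) on 2000 variable genes, after leaving out 77 genes, the members among them, with 27 principal components and Louvain resolution 0.8, without integration. Clusters were named from fixed markers; the rule for naming was written after values had been seen, and cell types rebuilt in this way can differ from the study's. Members and lists were chosen with earlier results of these data known, and all 9 members were described in every class. Part of the list of other receptors is not reported here. Python 3.11.15 and scipy 1.17.1 gave exact Poisson intervals for levels and Clopper-Pearson intervals for shares and ratios. A count of 0 was set to a floor of 3 UMIs. Genes needed 20 UMIs to enter the counts and shares of genes past 1.5-fold. Ratios of the members are given below that limit too. On simulated counts, 95.6% of 11109 true ratios over all cells fell inside the interval. These counts were Poisson draws of library totals, the model behind the interval, so they do not cover UMIs gathered in a few cells.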

Additional observations from a re-analysis of the deposited data

Results flagged for a closer look

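Ccr2 differed between Col1a1fspKO and WT in opposite directions in related cells. Its ratio was 1.26 in monocyte-like cells, above 1 in all 3 monocyte clusters, and 0.675 in granulocyte-monocyte progenitor-like cells, and both counting intervals exclude 1. The difference between these ratios was not tested, since each genotype had 1 library. The marker genes of the progenitor-like class were also lower in Col1a1fspKO, at 6938 CPM against 10542 in WT. Whether that class held the same mix of cells in both libraries was not tested.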

How the results depend on the processing

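With 1 library per genotype no replicate could be left out. No paired analysis was possible because each group had 1 sample. Of 364 alternative values, 336 stayed within the counting interval (counts of genes: within 1.5 times) and 28 moved. No ratio whose interval excluded 1 changed direction, and ratios of Ccr1, Cxcr5 and, in maturing neutrophil-like cells, Cxcr4 changed sign inside their intervals. With the same cluster weights in both libraries the log2 ratio of Cxcr2 over all cells was 0.19 in place of 0.73. Without monocyte-like and pro-B and pre-B-like cells that of Cxcr4 was -0.32 in place of -0.58. As a mean over single cells that of Ccr2 was 0.12 in place of 0.26. At least 50 UMIs per gene left 577 genes past 1.5-fold in place of 1053. Moving the border between the B classes lowered the log2 ratio of Cxcr4 in immature and mature B-like cells from -0.85 to -2.96 (resolution 1.2), -2.87 (15 principal components) and -2.72 (CCA integration), and that of Ccr7 from -0.09 to -1.09 (resolution 1.2) and -1.13 (15 principal components). At resolution 1.2 the log2 level of Ccr7 in that class over other cells was 2.44 in Col1a1fspKO in place of 3.35. Without the 20 most abundant genes, log2 levels over other cells in Col1a1fspKO and WT were 4.22 and 4.69 for Cxcr2, 1.83 and 1.27 for Cxcr4, 2.77 and 2.69 for Ccr1 and 3.82 and 3.44 for Ccr2. As means over single cells they were 3.07 and 3.35 for Cxcr2 and 4.36 and 3.92 for Ccr2. At 2500 UMIs per cell the share of cells with a UMI was 22.5% for Cxcr4 in maturing neutrophil-like cells of WT, 86.1% and 76.5% for Ccr2 in monocyte-like cells of Col1a1fspKO and WT, 45.2% for Ccr9 in plasmacytoid dendritic-like cells of Col1a1fspKO, and in WT 16.1% for Cxcr3 in T and NK-like cells and 2.60% for Cxcr5 in B-like cells. Resolution 0.4 and a shared UMI minimum gave no separate maturing neutrophil class, so Cxcr4 there has no value under them. Depth limits the lymphoid members most, with 17 to 120 UMIs each.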
